A study of Mus musculus with 4 samples.

Results

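The genes described here are 10 genes tied to follicular helper T cells, namely Pou2af1, Bcl6, Tox2, Ascl2, Il21, Cxcr5, Icos, Btla, Cd200 and Sh2d1a. They were taken by name, with FPKM summed over the transcripts of each symbol, and make up 10 of the 23990 gene symbols measured. Of the 10 members, 9 reached a mean of 1 FPKM in at least one tissue and so are among the 10634 genes tested, and Ascl2 did not. Pou2af1 passed that filter through one tissue alone, so that it had to differ between the tissues and is left out of the counts over members below.

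RNA was sequenced from CD44+ CD4 T cells of wild type C57BL/6 mice (C57BL/6J in the Methods) with EAE, a model of multiple sclerosis in which T cells primed against a myelin protein enter the spinal cord. EAE was induced with a MOG peptide in complete Freund's adjuvant followed by pertussis toxin, and cells were sorted at disease onset from spinal cord (CNS, 2 libraries) and from lymph nodes that drain the injected sites (dLN, 2 libraries). The cells were pooled before the sort, and the age and number of mice were not given in the sources used here. According to the Methods the sorted cells received PMA and ionomycin, which drive T cells past their antigen receptor, whereas the labels describe fresh sorting and name no such step. Nothing states that the libraries of a tissue came from separate animals, so p-values measure the spread between these samples alone, which may be technical.

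Follicular helper cells are CD4 T cells that move into B cell follicles and help B cells to form germinal centres and to make high-affinity antibody. The repressor Bcl6 directs their programme, Cxcr5 guides them towards follicles, Il21 and Icos act between them and B cells, and the adaptor Sh2d1a (SAP) makes their contact with B cells last. Most members are shared with other activated T cells, and no member was used in the sort. The comparison asks how the level of each of these genes differed between T cells in the inflamed CNS and those in dLN.

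The sorted cells carried the RNA of T cells in all 4 libraries. Each of 11 T cell markers was well above the level of 1 FPKM in every library, the lowest being Cd28 at 42.6 FPKM in dLN replicate 2. Cd4 had 502 and 531 FPKM in the CNS libraries, against 82.0 and 66.7 FPKM in the dLN libraries. The depth of each library was chosen so that the most low FPKM values corresponded to a whole number of fragments, to within 0.05 of a fragment. At the chosen depths between 86.6% and 90.5% of them did, where 10% would by chance at a fixed depth. Since the depth was chosen for it, that share is no independent check. The depth was 20.8 M fragments in CNS replicate 1, 21.6 M in CNS replicate 2, 18.4 M in dLN replicate 1 and 22.0 M in dLN replicate 2. Fragment numbers of single genes were estimated from that depth, and their intervals cover counting error only.

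Log2 ratios are CNS over dLN on the log2(FPKM + 1) scale, where changes of low genes come out too small, and were tested with limma and Benjamini-Hochberg adjustment over all 10634 genes. With 2 libraries per tissue, an exact permutation test cannot go below p = 0.333 (two-sided). At an adjusted p under 0.05, 37.2% of all genes tested were called lower in CNS and 37.8% higher, 74.9% in either direction, so that a call on its own says little about a member. Among the 9099 genes whose mean reached 1 FPKM in both tissues, 38.9% were lower and 35.1% higher, and of the 8 members among them 7 were lower and 1 (Sh2d1a) was higher. A difference of at least 2-fold was called for 6 of these 8 members and for 36.3% of the 9099 genes (39.2% of all tested). In each of the 8 the libraries of one tissue lay wholly above those of the other, which held for 88.6% of the 9099 (89.4% of all tested). Counts over gene lists below are likewise over genes at that level in both tissues, whose median log2 ratio was -0.04, since a gene that passed through one tissue had to differ. In bulk RNA, fewer cells expressing a gene and less of its RNA per cell cannot be told apart.

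**Figure D1:**
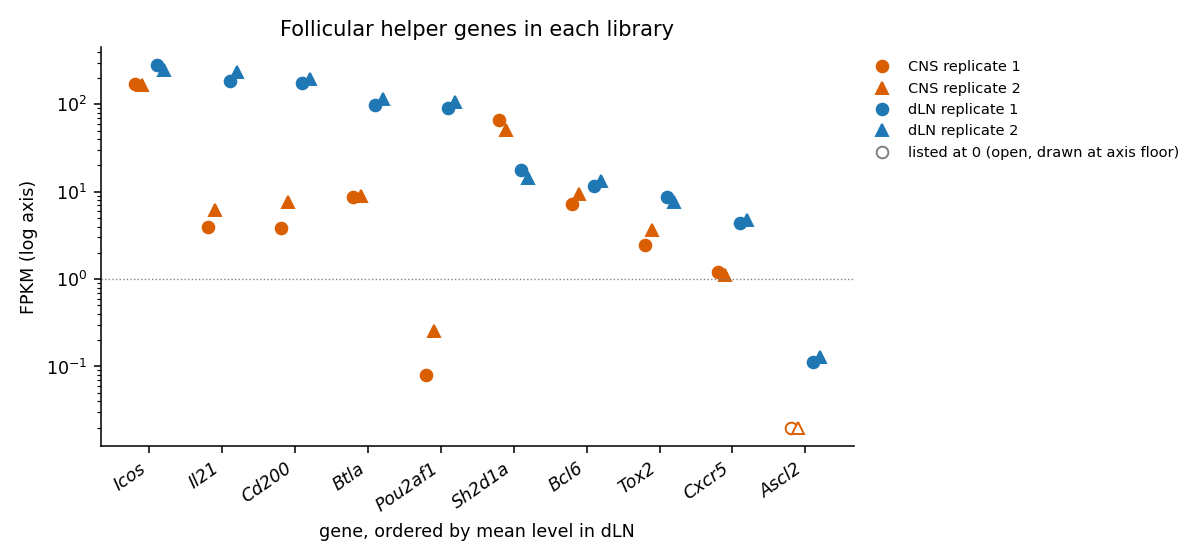
FPKM of the 10 members in each library on a log axis, ordered by mean level in dLN, with CNS in orange, dLN in blue, circles for replicate 1 and triangles for replicate 2. Pou2af1 runs from 0.0792 FPKM in CNS replicate 1 to 105 FPKM in dLN replicate 2, whereas Sh2d1a alone has its CNS points, at 66.8 and 51.6 FPKM, above its dLN points.

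**Figure D2:**
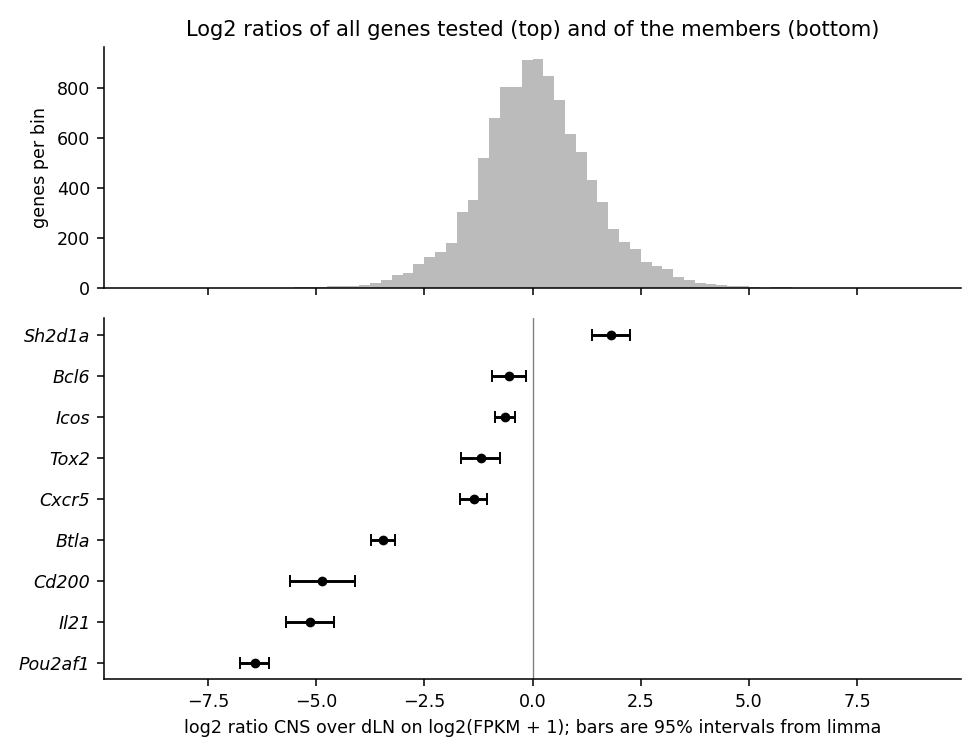
Number of genes by log2 ratio (CNS over dLN) for all 10634 genes tested, above the log2 ratio of each of the 9 members tested with its 95% interval from limma. The members spread from -6.42 (Pou2af1) to 1.81 (Sh2d1a), around an all-gene median of 0.05.

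Pou2af1 (Entrez gene 18985, chr9:51213690-51240079, plus strand) encodes OCA-B, a coactivator that joins Oct factors on DNA and is best known from B cells. CNS replicate 1 held 0.0792 FPKM of it and CNS replicate 2 held 0.253 FPKM, against 92.1 and 105 FPKM in dLN replicates 1 and 2. Both CNS libraries thus lay far below both dLN libraries, and the tissues did not overlap. The mean of CNS was 0.166 ± 0.123 FPKM and that of dLN 98.8 ± 9.47 FPKM (SD, n = 2 each). The CNS values rested on about 4 fragments in replicate 1 (95% exact Poisson interval 1.09 to 10.2) and 13 in replicate 2 (6.92 to 22.2), the dLN values on about 4035 and 5532. The log2 ratio was -6.42 (SE, the standard error, 0.13), and in the fit with no filter on low values its limma adjusted p was 0.00123. The ratio of mean FPKM, dLN over CNS, was 596, with an interval of 372 to 1022 from the counting error of the 17 CNS fragments alone. That ratio hangs on single CNS libraries, since it was 391 without CNS replicate 1 and 1247, above the interval, without CNS replicate 2. With a pseudocount of 0.1 in place of 1 the log2 ratio was -8.62.

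The 250 bases before the start of Pou2af1 are shown with those of Il21 and Bcl6, as the most changed factor, the cytokine and the master regulator among the members, in lower case with motif matches in capitals. The sequences are those of RefSeq on GRCm38.p6 (mm10), printed 5′ to 3′ on the strand of the gene. The motifs searched on both strands were the octamer ATGCAAAT, which Oct factors bind, the STAT-type TTCNNNGAA, the E-box CAGCTG and the NFAT-type GGAAAA (read as its complement on the other strand). They occur in 1.60%, 7.02%, 13.0% and 20.4% of 32851 promoter windows of 250 bases. The Pou2af1 window, chr9:51213440-51213689 on the plus strand, lies outside annotated exons and held no match.
Pou2af1: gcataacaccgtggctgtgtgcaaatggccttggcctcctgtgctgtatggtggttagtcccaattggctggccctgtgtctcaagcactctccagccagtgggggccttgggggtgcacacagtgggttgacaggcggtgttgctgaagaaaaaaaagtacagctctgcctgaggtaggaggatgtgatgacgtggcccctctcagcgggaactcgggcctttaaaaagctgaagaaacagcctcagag
For Il21 the 230 bases nearest the start are given, chr3:37232637-37232866 on the minus strand, which carry no annotated exon and hold NFAT-type matches 202 and 118 bases before the start.
Il21: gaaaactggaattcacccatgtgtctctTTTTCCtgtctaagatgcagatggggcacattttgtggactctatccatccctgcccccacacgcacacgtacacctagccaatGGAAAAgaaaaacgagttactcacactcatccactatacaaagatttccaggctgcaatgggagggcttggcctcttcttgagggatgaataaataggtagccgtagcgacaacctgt
For Bcl6 the window chr16:23981284-23981533 on the minus strand is given, which lies inside the gene, in no annotated exon, before an alternative start. It held STAT-type matches 168, 122 and 88 bases and NFAT-type matches 239 and 28 bases before that start. The other Bcl6 window, chr16:23988853-23989102, precedes a RefSeq start upstream of the deposited locus. It held a STAT-type match 118 bases before that RefSeq start and no other match, and is not printed.
Bcl6: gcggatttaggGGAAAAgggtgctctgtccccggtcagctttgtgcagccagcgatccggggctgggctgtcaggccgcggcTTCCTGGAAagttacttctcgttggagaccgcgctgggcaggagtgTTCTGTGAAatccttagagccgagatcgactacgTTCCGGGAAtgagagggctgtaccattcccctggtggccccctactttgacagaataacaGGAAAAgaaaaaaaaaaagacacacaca
Of the 10 members, 7 had an entry, with 12 windows in all, and Cxcr5, Icos and Sh2d1a had none. The octamer was found in 0 of the 7, the STAT-type motif in 1 (Bcl6), the E-box in 1 (Btla, 236 bases before the start) and the NFAT-type motif in 3 (Bcl6, Il21 and Tox2). A match describes letters in a window and no more than that.

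Of the Oct factors that OCA-B joins, Pou2f2 (Oct2) fell with Pou2af1. Pou2f2 had 2.15 and 3.31 FPKM in the CNS libraries, against 86.7 and 100.2 FPKM in the dLN libraries. Its CNS and dLN values did not overlap, with a log2 ratio of -4.68 (SE 0.18, limma adjusted p = 8.98e-05). The more widely expressed Pou2f1 (Oct1) was low in both tissues, at 1.46 and 1.67 FPKM in CNS, against 3.62 and 3.82 FPKM in dLN. It changed less, with a log2 ratio of -0.88 (limma adjusted p = 0.0019). Since Pou2af1 and Pou2f2 are abundant in B cells, B cell markers were read in the same libraries. Of 12 such markers, 10 were under 1 FPKM in every library, and Pax5 was listed at 0 in all 4. The summed level of the list was 1.53 and 4.19 FPKM in the CNS libraries and 0.817 and 0.547 FPKM in the dLN libraries. Cd79b was its most abundant gene in each tissue. The part of B cells or plasma cells in the levels of Pou2af1 and Pou2f2 was not tested. The plasma cell markers summed to 46.4 and 49.0 FPKM in CNS, against 106 and 80.6 FPKM in dLN, nearly all of it from Xbp1, which T cells also express. Of the 6 markers Xbp1 alone reached 1 FPKM in both tissues, and it was called lower in CNS (log2 ratio -0.90). Derl3, which passed the filter through dLN alone, was at 0.121 and 0.283 FPKM in CNS, against 3.90 and 2.40 FPKM in dLN. Sdc1 overlapped between the tissues, at 0.214 and 0.918 FPKM in CNS and 0.902 and 1.15 FPKM in dLN. The other 3 were under 1 FPKM throughout, namely Igj, at 0.0245 and 0.121 FPKM in CNS and 0.225 and 0.401 FPKM in dLN, Mzb1, at 0 and 0.648 FPKM in CNS and 0.0751 and 0 FPKM in dLN, and Tnfrsf17, which was listed at 0 in every library.

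**Figure D3:**
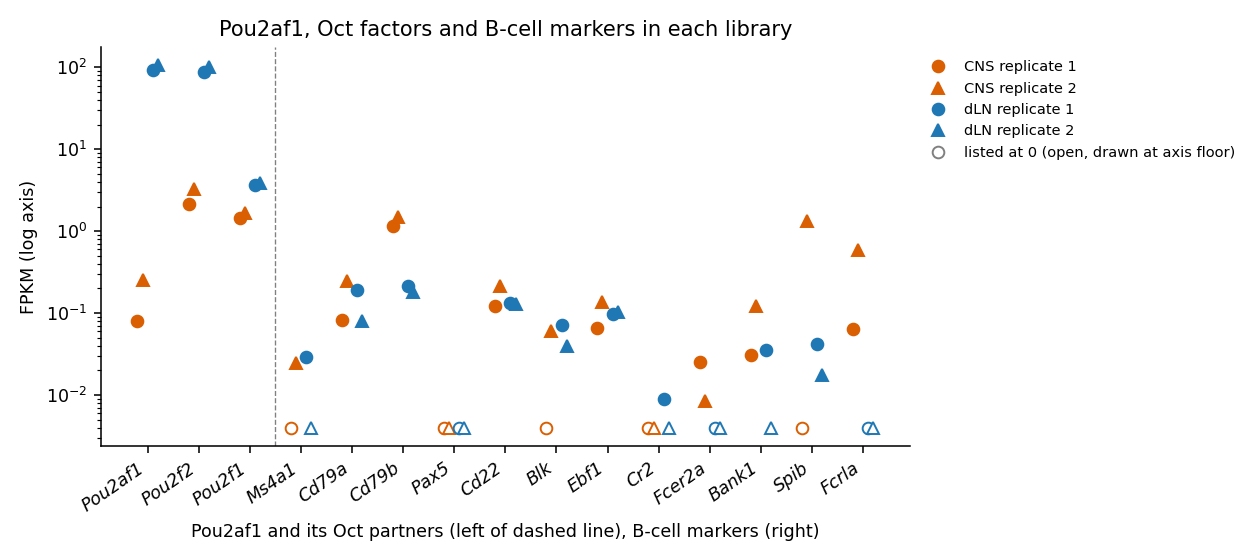
FPKM of Pou2af1, the Oct factor genes Pou2f2 and Pou2f1 and 12 B cell markers in each library on a log axis, with open symbols at the axis floor for values listed at 0. In dLN (blue) Pou2af1 stands at 92.1 and 105 FPKM, and the highest B cell marker there, Cd79b, at 0.213 and 0.179 FPKM.

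The genes whose profile was nearest to that of Pou2af1, by Euclidean distance between centred log2(FPKM + 1) values over the 4 libraries, were Tnfsf8 (distance 0.171), Mmp13 (0.238) and Il22 (0.801). This order depends on the pseudocount of 1, since with 0.1 they took places 15, 8 and 28. Tnfsf8, the gene of CD30 ligand, was at 12.3 and 15.9 FPKM in CNS, against 1272 and 1546 FPKM in dLN. Mmp13, a collagenase gene, had 0.0189 FPKM in CNS replicate 1, a listed 0 in replicate 2, and 71.2 and 81.3 FPKM in dLN. Il22, a cytokine gene, was at 30.5 and 48.9 FPKM in CNS, against 2124 and 2026 FPKM in dLN, and reads could be split between Il22 and its near-identical copy Iltifb.

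Bcl6 (Entrez gene 12053, chr16:23965052-23988612, minus strand), the repressor that directs the follicular helper programme, changed little. It had 7.17 and 9.42 FPKM in the CNS libraries, against 11.6 and 13.2 FPKM in the dLN libraries. CNS lay below dLN without overlap, but the distance between the nearest libraries of the tissues was about that between replicates. The mean of CNS was 8.30 ± 1.59 FPKM and that of dLN 12.4 ± 1.09 FPKM (SD, n = 2 each), a ratio of 1.50. Its log2 ratio was -0.54 (SE 0.15, limma adjusted p = 0.0251), with adjusted p-values between 0.00607 and 0.114 under the alternatives. The call was lost without CNS replicate 1 (log2 ratio -0.36, adjusted p = 0.103), without dLN replicate 1 (-0.62, adjusted p = 0.0585), without dLN replicate 2 (-0.45, adjusted p = 0.114) and with no filter on low values (adjusted p = 0.0656). Each value rested on at least 467 fragments. Bcl6 and the repressor gene Prdm1 (Blimp-1) oppose each other in T cells. Prdm1 was at 14.4 and 15.9 FPKM in CNS, against 11.4 and 7.64 FPKM in dLN, with a log2 ratio of 0.64 (limma adjusted p = 0.0303). Its call too was lost without CNS replicate 1 (log2 ratio 0.71, adjusted p = 0.138), CNS replicate 2 (0.58, adjusted p = 0.151) or dLN replicate 2 (0.38, adjusted p = 0.0731), with no filter (adjusted p = 0.0808) and with the same FPKM sum per library (0.46, adjusted p = 0.0718).

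The profiles nearest to that of Bcl6, by the same measure, were those of Dstyk (distance 0.0400), a kinase gene, Ccnl1 (0.0441), a cyclin gene, and Daglb (0.0528), a lipase gene, which with a pseudocount of 0.1 took places 2761, 5 and 27. Ccnl1 was at 30.6 and 37.6 FPKM in CNS, against 47.2 and 53.0 FPKM in dLN, and the other 2 were under 4 FPKM throughout. Their log2 ratios were -0.57, -0.55 and -0.54. Dstyk passed the filter through dLN alone and was not called without it (limma adjusted p = 0.0563). Ccnl1 and Daglb lost their calls without CNS replicate 1 (log2 ratios -0.40 and -0.38) and without dLN replicate 2 (-0.47 and -0.49), and Daglb also without dLN replicate 1 (-0.59) and with no filter on low values.

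Tox2 (Entrez gene 269389, chr2:163225454-163323102) encodes an HMG-box factor that promotes follicular helper cells. It was at 2.45 and 3.61 FPKM in CNS, against 8.74 and 7.56 FPKM in dLN, with the CNS libraries lower and no overlap. This gave a log2 ratio of -1.20 (SE 0.17, limma adjusted p = 0.00263). Its relative Tox, of the same family, was also lower in CNS, at 7.31 and 5.27 FPKM against 16.5 and 21.1 FPKM in dLN (log2 ratio -1.45, limma adjusted p = 0.0018).

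Ascl2 (Entrez gene 17173, chr7:142966822-142969264), a basic helix-loop-helix factor that can induce Cxcr5, was at the limit of detection. It was listed at 0 in both CNS libraries and at 0.114 and 0.127 FPKM in the dLN libraries, from about 3 and 4 fragments. The exact Poisson intervals of single CNS libraries (0 to 3.69) and dLN libraries (0.619 to 8.77 and 1.09 to 10.2) overlapped. A split of 0 and 7 fragments between the tissues had p = 0.00641 (exact binomial test, unadjusted, for counting error alone). That test was chosen after the fragments were seen, so no conclusion is drawn from it. In the fit with no filter on low values Ascl2 was called lower in CNS (log2 ratio -0.16, limma adjusted p = 0.00736). This rests on 7 fragments, and no fold is given.

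Il21 (Entrez gene 60505, chr3:37222759-37232636, minus strand) encodes the cytokine through which follicular helper cells act on B cells, and which other T cells make as well. It had 3.95 and 6.14 FPKM in the CNS libraries, against 188 and 234 FPKM in the dLN libraries. CNS was low and dLN high in each replicate, without overlap. The means were 5.05 ± 1.55 FPKM and 211 ± 32.5 FPKM (SD, n = 2 each), a ratio of 41.7. The log2 ratio of -5.15 (SE 0.21, limma adjusted p = 9.15e-05) ranked 17 from the lowest of all genes tested. Of its 2 transcripts, the main one held 97.8% of the level in each dLN library and nearly all of it in CNS. The other was at 4.16 and 5.03 FPKM in dLN. The annotated antisense gene Gm12534 overlaps Il21 over 1137 bases, and since the sources do not say that strand was used in counting, reads of the pair cannot be told apart. The receptor gene Il21r was expressed in both tissues, at 47.1 and 59.2 FPKM in CNS, against 45.6 and 43.9 FPKM in dLN. Its log2 ratio of 0.23 did not pass the test (limma adjusted p = 0.162) but did so without CNS replicate 1 (0.40, adjusted p = 0.027) and with the same upper quartile per library (0.37, adjusted p = 0.0401).

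The profiles nearest to that of Il21 were those of 1810009J06Rik (distance 0.342), a gene of the trypsin family, Trpm6 (0.357), an ion channel gene, and Iltifb (0.370), the copy of Il22, at places 252, 251 and 15 with a pseudocount of 0.1. 1810009J06Rik was at 0.0339 and 0.941 FPKM in CNS, against 38.5 and 46.6 FPKM in dLN. Trpm6 was at 0.0527 and 0.146 FPKM in CNS, against 36.4 and 36.9 FPKM in dLN. Iltifb was at 2.48 and 4.92 FPKM in CNS, against 183 and 169 FPKM in dLN, and its values are uncertain for the reason given for Il22.

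Cxcr5 (Entrez gene 12145, chr9:44511787-44526421, minus strand), the receptor for the follicle chemokine CXCL13, was low in both tissues. It was at 1.22 and 1.10 FPKM in CNS, against 4.38 and 4.75 FPKM in dLN. The CNS libraries lay below the dLN libraries by more than either pair differed within itself. The values rested on about 63 and 58 fragments in CNS and 196 and 254 in dLN. The log2 ratio was -1.36 (SE 0.12, limma adjusted p = 0.000458). Its 3′ end overlaps Bcl9l on the other strand over 110 bases, and Bcl9l went the other way, at 7.71 and 10.8 FPKM in CNS, against 1.64 and 1.06 FPKM in dLN, so that reads of that stretch cannot be assigned. The chemokine gene Cxcl13 was listed at 0 in 3 libraries and reached 0.0945 FPKM in CNS replicate 1.

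Icos (Entrez gene 54167, chr1:60977914-61000321), a costimulatory receptor that follicular helper cells need, was the most abundant member in either tissue. It had 169.7 and 169 FPKM in the CNS libraries, against 279 and 247 FPKM in the dLN libraries. CNS was lower without overlap, though the difference was small beside that of Il21 or Pou2af1. Its log2 ratio was -0.63 (SE 0.09, limma adjusted p = 0.00234), a ratio of mean FPKM of 1.56. The ligand gene Icosl went the opposite way, at 17.0 and 18.7 FPKM in CNS, against 0.632 and 0.247 FPKM in dLN. Its log2 ratio was 3.73 (SE 0.16). It passed the filter through CNS alone, and with no filter its limma adjusted p was 0.00152.

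Btla (Entrez gene 208154, chr16:45224337-45252895), an inhibitory receptor, was at 8.80 and 8.99 FPKM in CNS, against 99.4 and 117 FPKM in dLN. The CNS libraries were nearly equal and the dLN libraries far higher. This gave a log2 ratio of -3.46 (SE 0.11, limma adjusted p = 8.12e-05), with a ratio of mean FPKM of 12.2. Its transcripts shared the level about evenly, one of them holding 55.9% and 43.7% in CNS and 43.0% and 49.3% in dLN. Tnfrsf14 (HVEM), which binds Btla, was level, at 13.3 and 16.3 FPKM in CNS, against 13.9 and 13.7 FPKM in dLN. The tissues overlapped, and its log2 ratio of 0.09 did not pass the test (limma adjusted p = 0.533).

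Cd200 (Entrez gene 17470, chr16:45382135-45409053) encodes a membrane glycoprotein that gives an inhibitory signal through its receptor Cd200r1. It was at 3.81 and 7.66 FPKM in CNS, against 176 and 195 FPKM in dLN. In proportion to their level, though not in FPKM, the CNS replicates differed more from each other than those of dLN. Both CNS libraries lay far below dLN. The log2 ratio was -4.85 (SE 0.29, limma adjusted p = 0.00018), with a ratio of mean FPKM of 32.3, or 48.7 without CNS replicate 2. Cd200r1 was higher in CNS, at 15.5 and 14.5 FPKM against 5.44 and 4.91 FPKM (log2 ratio 1.37, limma adjusted p = 0.000288). Btla and Cd200 lie next to each other on chromosome 16, 129 kb apart, and 0 genes of the tables lie wholly between them.

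Sh2d1a (Entrez gene 20400, chrX:42502608-42522075) encodes SAP, the adaptor that couples SLAM receptors to the kinase Fyn, and was the one member higher in CNS. It was at 66.8 and 51.6 FPKM in CNS, against 17.9 and 14.4 FPKM in dLN. Both CNS libraries lay above both dLN libraries. The means were 59.2 ± 10.7 FPKM and 16.1 ± 2.44 FPKM (SD, n = 2 each), a 3.67-fold difference. On the log2 scale the ratio was 1.81 (SE 0.17, limma adjusted p = 0.000606). Sh2d1a is on the X chromosome, and the sex-linked transcripts split as the tissues did. Xist was listed at 0 and at 0.0026 FPKM in CNS and was at 26.6 and 22.3 FPKM in dLN, and Y-linked Ddx3y was at 12.7 and 11.2 FPKM in CNS and listed at 0 in dLN. Sex and tissue cannot be told apart in these libraries.

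Of the SLAM receptors that SAP binds, 4 were tested and each was called lower in CNS (beside 38.9% of the 9099 genes), 2 of them by calls that were lost under alternatives, whereas Cd244 (2B4) was too low to be tested, at 0.119 and 0.465 FPKM in CNS and listed at 0 in both dLN libraries. Slamf1 was at 54.1 and 54.0 FPKM in CNS, against 165 and 196 FPKM in dLN (log2 ratio -1.72, limma adjusted p = 0.0002). Slamf6 was at 18.4 and 17.3 FPKM in CNS, against 39.5 and 46.7 FPKM in dLN (log2 ratio -1.22, limma adjusted p = 0.000563). Both were lower in CNS without overlap. Cd84 was at 49.1 and 43.5 FPKM in CNS, against 55.8 and 65.3 FPKM in dLN, with a log2 ratio of -0.38 (limma adjusted p = 0.0356). The call on Cd84 was lost without CNS replicate 1 (-0.46, adjusted p = 0.0715), CNS replicate 2 (-0.29, adjusted p = 0.135) or dLN replicate 2 (-0.27, adjusted p = 0.168), and also with no filter, the same upper quartile or the replicate number as a block. Ly9 was at 32.8 and 31.4 FPKM in CNS, against 39.4 and 39.1 FPKM in dLN, with a log2 ratio of -0.28 (limma adjusted p = 0.0256). The call on Ly9 was lost without CNS replicate 2 (-0.25, adjusted p = 0.0618), dLN replicate 1 (-0.28, adjusted p = 0.114) or dLN replicate 2 (-0.29, adjusted p = 0.111), and also with the same upper quartile or the highest transcript. Fyn, the kinase that SAP recruits, was at 105 and 106 FPKM in CNS, against 229 and 256 FPKM in dLN (log2 ratio -1.19, limma adjusted p = 0.000296).

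By mean FPKM, which is per length and so can be compared between genes, the order of the members in CNS was Icos, Sh2d1a, Btla, Bcl6, Cd200, Il21, Tox2, Cxcr5, Pou2af1 and Ascl2. There the ranges of Btla and Bcl6, of Bcl6 and Cd200 and of Cd200 and Il21 overlapped. Within single CNS libraries, Btla and Bcl6 changed order, as did Cd200 and Il21, whereas Bcl6 lay above Cd200 in each. In dLN the order was Icos, Il21, Cd200, Btla, Pou2af1, Sh2d1a, Bcl6, Tox2, Cxcr5 and Ascl2. The ranges of Il21 and Cd200 and of Btla and Pou2af1 overlapped, though in each dLN library Il21 lay above Cd200 and Btla above Pou2af1. Sh2d1a thus took place 2 in CNS and place 6 in dLN, and Pou2af1 place 9 in CNS and place 5 in dLN.

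Of 20 other genes that mark or promote follicular helper cells, 11 (55%, beside 38.9% of the 9099 genes) were lower in CNS, 7 (35%, beside 35.1%) were higher and 2 did not pass the test, with a median log2 ratio of -0.80. The lowest were Il4, a cytokine gene (0 and 0.225 FPKM in CNS against 266 and 273 FPKM in dLN, log2 ratio -7.93, not in that count since it passed the filter through dLN alone), Tnfsf8 (-6.55) and Irf4, a factor induced by antigen receptor signals (30.8 and 39.7 FPKM against 348 and 362 FPKM, -3.31). The highest were Tcf7, the TCF-1 factor upstream of Bcl6 (116 and 122 FPKM against 22.5 and 20.9 FPKM, log2 ratio 2.40), its relative Lef1 (1.52) and Maf (1.33). Pdcd1, the gene of PD-1, was at 47.7 and 49.7 FPKM in CNS, against 130 and 151 FPKM in dLN (log2 ratio -1.51, limma adjusted p = 0.00024).

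Among 15 genes that restrain follicular helper cells or are low in them, 9 (60.0%, beside 35.1% of the 9099) were higher in CNS, 5 (33.3%, beside 38.9%) were lower and 1 did not pass the test, with a median log2 ratio of 0.64. The highest were Klf2 (179 and 216 FPKM in CNS against 2.52 and 2.28 FPKM in dLN, log2 ratio 5.86), a factor that represses the follicular helper programme, its target S1pr1 (4.97), a receptor for exit from lymph nodes, and P2rx7 (4.80), an ATP-gated channel, not counted since it passed the filter through CNS alone. The lowest were Stat5a (13.4 and 19.6 FPKM against 121 and 124 FPKM, log2 ratio -2.84), which carries IL-2 signals, Foxp1 (-2.81) and the IL-2 receptor gene Il2ra (-2.65).

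Of 17 partners and binding proteins of the members, without Icosl, 7 (41.2%) were lower in CNS, 7 (41.2%) were higher and 3 did not pass the test, with a median log2 ratio of -0.25, so that the shares of this list were near those of the 9099 genes. The list leaves out Slamf1, Slamf6, Cd84 and Il21r, which also bind member products but were counted with the genes that mark or promote follicular helper cells. Of those, Slamf1 (log2 ratio -1.72), Slamf6 (-1.22) and, by a call lost under alternatives, Cd84 (-0.38) were lower in CNS. Il21r (0.23) did not pass the test. Beyond those given above, the highest were Pik3r1 (14.2 and 15.8 FPKM in CNS against 3.28 and 2.65 FPKM in dLN, log2 ratio 2.02), a PI3-kinase subunit that Icos engages, and the phosphatase gene Ptpn6 (1.72), whose product Btla can recruit.

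**Figure D4:**
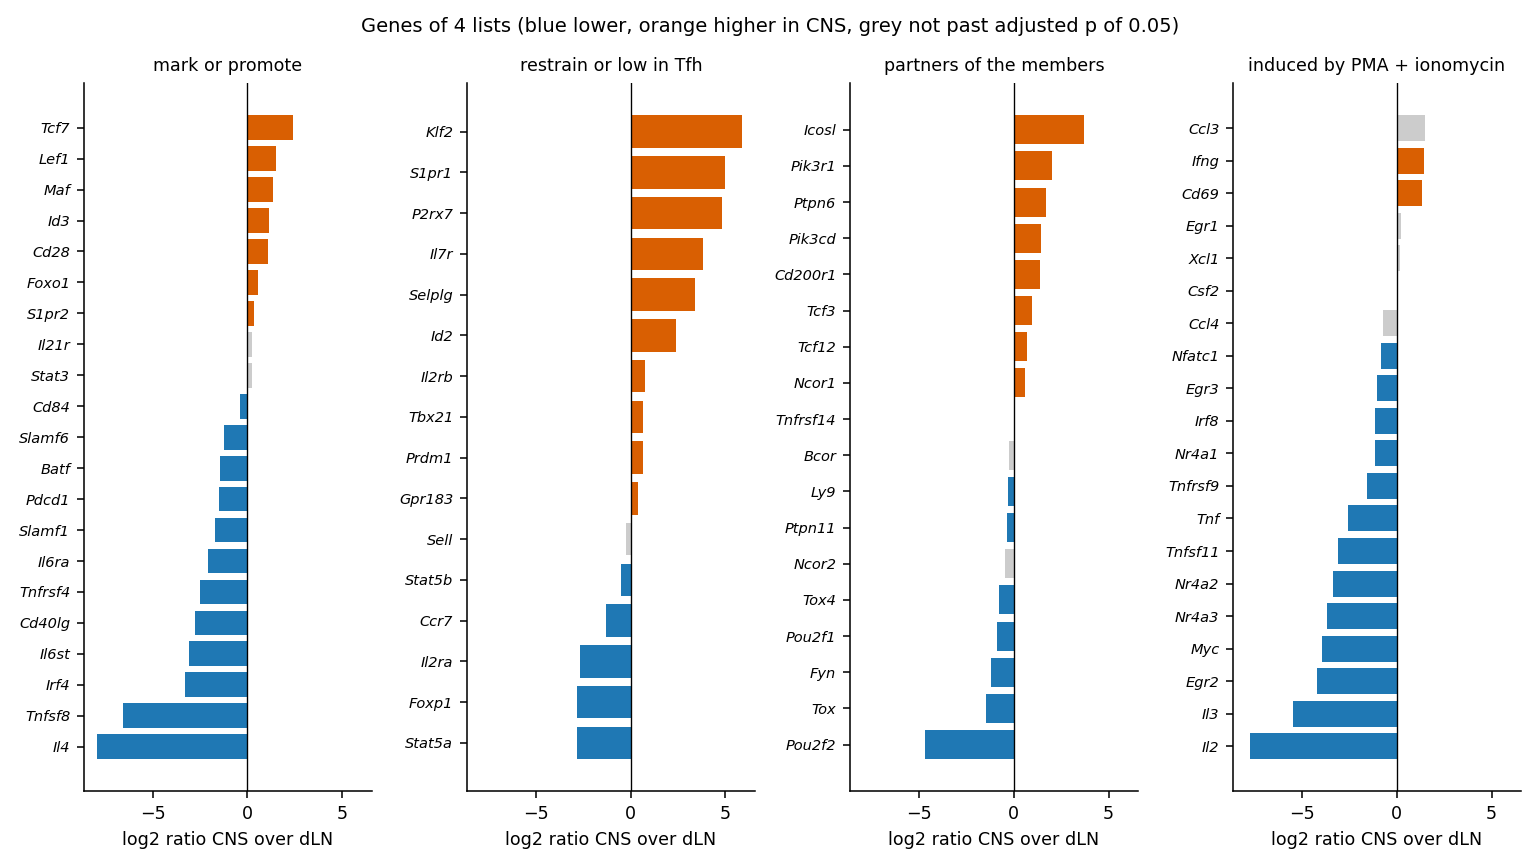
Log2 ratio (CNS over dLN) of each tested gene in 4 lists, with bars starting at 0, blue for genes called lower in CNS, orange for genes called higher and grey for genes that did not pass the test. Il4 at -7.93 and Il2 at -7.70 are the longest bars to the left, and Klf2 at 5.86 is the longest to the right.

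Of 20 genes that PMA and ionomycin induce, 13 (65.0%, beside 38.9% of the 9099) were lower in CNS, 2 (10%, beside 35.1%) were higher and 5 did not pass the test, with a median log2 ratio of -1.14. The list summed to 1888 and 2891 FPKM in the CNS libraries and to 9886 and 11140 FPKM in the dLN libraries, with Ifng the most abundant gene in CNS and Il2 in dLN, and no gene of the list was at 0 in every library. Il2 was at 18.2 and 38.8 FPKM in CNS, against 5363 and 6176 FPKM in dLN (log2 ratio -7.70). Il3 (-5.46) and Egr2 (-4.19) followed. Cd69, an early activation marker, was higher in CNS at 516 and 510.0 FPKM against 189 and 221 FPKM (log2 ratio 1.32). Ifng, called higher with a log2 ratio of 1.43 (limma adjusted p = 0.0343), lost its call without CNS replicate 1 (1.71, adjusted p = 0.123), CNS replicate 2 (1.15, adjusted p = 0.183) or dLN replicate 2 (0.81, adjusted p = 0.0561) and with no filter (adjusted p = 0.0986). Ccl3, with a log2 ratio of 1.48, did not pass the test (limma adjusted p = 0.0962) but did so without CNS replicate 1 (2.44, adjusted p = 0.0214). The part of stimulation in the lower level of Il21, Pou2af1 or any other member was not tested.

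Markers of other cell types differed between the libraries as well. Myeloid markers summed to 11.1 FPKM in CNS replicate 1 and 352 FPKM in CNS replicate 2, against 0.647 and 0.319 FPKM in dLN, with S100a8 (listed at 0 in 3 libraries and at 101 FPKM in CNS replicate 2) the most abundant. Of the 9 markers, 8 passed the filter through CNS alone and 1 was too low, so no count of calls is given. Regulatory T cell markers, which share the CD4 gate, summed to 489 and 585 FPKM in CNS, against 912 and 873 FPKM in dLN, with Tnfrsf18 the most abundant in CNS and Il2ra in dLN. Of these 6 markers, where 38.9% of the 9099 genes were lower, 5 were lower in CNS and Tnfrsf18 was higher (log2 ratio 1.33). Among the lower was Foxp3 (24.7 and 35.9 FPKM against 81.6 and 78.2 FPKM, log2 ratio -1.39), and none of the 6 was at 0. T cell markers summed to 4318 and 4359 FPKM in CNS, against 2032 and 1887 FPKM in dLN, led by Thy1 in CNS and Cd2 in dLN, with 7 of 11 higher and 3 lower in CNS (35.1% and 38.9% of the 9099). The part of these differences in the levels of the members was not tested.

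Among the remaining lists, CD8 T cell and NK cell markers summed to 6.42 and 10.8 FPKM in CNS, against 3.50 and 3.40 FPKM in dLN (led by Cd8b1, Klra1 at 0 throughout). Dendritic cell markers summed to 9.88 and 20.3 FPKM in CNS, against 14.0 and 5.03 FPKM in dLN, led by Itgax in CNS and Batf3 in dLN. Neuronal markers summed to 5.55 and 15.1 FPKM in CNS, against 0.736 and 0.265 FPKM in dLN, led by Nefl and Stmn2. Markers of oligodendrocytes and astrocytes summed to 49.5 and 48.0 FPKM in CNS, against 55.7 and 58.0 FPKM in dLN, nearly all from Mbp, which T cells also transcribe. Endothelial markers, led by Pecam1, summed to 21.4 and 27.4 FPKM in CNS, against 12.1 and 9.70 FPKM in dLN. Markers of follicular and lymph node stroma summed to 2.34 and 9.60 FPKM in CNS, against 0.0875 and 0.183 FPKM in dLN. Nearly all of the CNS sum came from Ccl19 (2.12 and 9.18 FPKM). Ccl21a was at 0 in every library, and Cxcl13, the gene of the ligand of Cxcr5, was at 0 outside CNS replicate 1 (0.0945 FPKM). The sum of each of these lists was small beside that of the T cell markers.

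**Figure D5:**
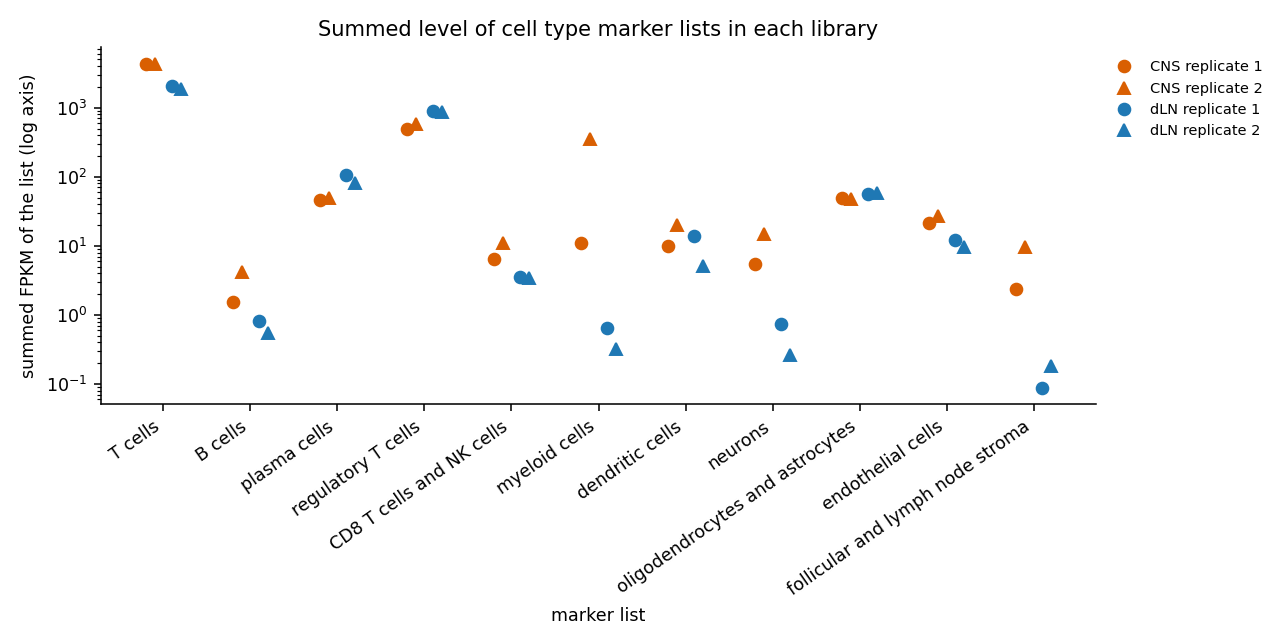
Summed FPKM of 11 marker lists in each library on a log axis, CNS in orange and dLN in blue. T cell markers reach 4359 FPKM, whereas the myeloid sum is the one that parts the CNS replicates most, at 11.1 and 352 FPKM.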

How the data were processed

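RNA-seq was analysed in 4 libraries, 2 from CNS and 2 from dLN. The deposited values are FPKM of 33819 RefSeq transcripts (mouse build mm10), which the authors gave in 1 table per tissue with the same transcripts. The aligner and the program that computed FPKM were not given in the sources used here, so the total by which each library was scaled is not known. In the CNS table both library names share 1 header cell, and the pair of value columns was read in the order in which that cell names them.

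FPKM was summed over transcripts of a symbol. Left out were 565 transcripts without a symbol, which held between 0.142% and 0.446% of each library. The test, two-sided, was that of limma 3.58.1 (lmFit, then eBayes with trend) under R 4.3.3. It took log2(FPKM + 1) of genes whose mean reached 1 FPKM in a tissue, a model of tissue alone, and a Benjamini-Hochberg threshold of 0.05. Low FPKM values move in steps of 1 fragment, from which depths of 18.4 to 22.0 M fragments were estimated. Both steps were tested on simulated data. Strand, exons and overlapping genes came from GENCODE M21, and starts are counted from 1. Tables, intervals and plots were made in Python 3.11.15 (pandas 2.3.3, numpy 2.4.6, matplotlib 3.10.9, scipy 1.17.1).

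The members and the gene lists were chosen with earlier results of these data known. One planned B cell marker is not reported here and was left out of its list. Genes named are the members, the 3 highest and 3 lowest log2 ratios of each list, list genes whose products bind a member, Pdcd1 and Prdm1 (fixed by name), and the 3 nearest profiles of Pou2af1, Bcl6 and Il21. Btla and Cd200 were seen to be neighbours after their values. The limit of counts to genes at 1 FPKM in both tissues, the binomial test of Ascl2 and the naming of Cd244 were also set after values were seen. Single marker genes and genes that overlap a member were chosen after their values were seen. Besides the overlaps given above, Bcl6 overlaps Gm37419 on the other strand over 114 bases. On the same strand, Pou2af1 overlaps Gm47828 (3789 bases) and Icos overlaps Gm37039 (2485 bases). No FPKM value was found for Gm37419, Gm47828 or Gm37039. Alternatives covered the pseudocount, the filter, 3 scalings, a single transcript (the highest) per gene, eBayes without trend, a replicate block, leaving out each library and a minimum fold.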

Additional observations from a re-analysis of the deposited data

How the results depend on the processing

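The alternatives other than the minimum fold gave 111 comparisons of the 8 members at 1 FPKM or more in both tissues. Of these, 107 stayed on the same side of the threshold in the same direction. The other 4 are those of Bcl6 given above, whose log2 ratio lay between -0.71 and -0.36 with each library left out in turn. At a minimum difference of 2-fold, 6 of the 8 members were called. With a library left out, the spread of the lone sample of that tissue is taken from the other tissue. Cxcr5 has no value at a minimum mean of 5 FPKM. Of 35 other genes named and at 1 FPKM or more in both tissues, 457 of 488 comparisons kept side and direction. The nearest profiles changed with the pseudocount. Tnfrsf14 reversed to -0.0974 with the same FPKM sum per library, and lay between -0.050 and 0.23 with each library left out; it was called in no fit, and the cause was not tested.

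Requiring a log2 ratio of at least 1 lowered the genes called from 7968 to 4168, with 1938 lower and 2230 higher, since fewer genes pass a further criterion. The genes induced by PMA and ionomycin called higher fell from 2 to 1 with no filter on low values, and numbered 1 to 3 with each library left out. Of all calls 50.4% were higher in CNS, 43.1% with the same sum (3423 higher, 4522 lower) and 55.6% with the same upper quartile (4468 higher, 3569 lower), which shifted the median log2 ratio by -0.17 and 0.12.

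Replicates 1 and 2 of the tissues share only a number in the labels, and the correlation of their differences across genes was 0.0933, so no pairing was assumed. A fit with a replicate block called 7828 genes (3960 higher in CNS, 3868 lower), and its calls on the members tested were as without it. Depth limits Ascl2 and the CNS level of Pou2af1, which rest on at most 13 fragments in a library.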
